A study of Mus musculus with 16 samples.

Results

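The 9 genes described here code for proteins that start, brake or dissolve a clot at the cell surface: Plau, Plat, Plaur, Serpine2, F3, F13a1, Thbd, Procr and Tfpi. They were chosen by symbol, with earlier results of these data known, and the probe of highest mean over the 16 arrays was used for each. They are 9 of the 20863 genes measured in whole mouse lung. All values are log2 intensities from 1-colour arrays, in which a step of 1 is a doubling of the signal on 1 probe. Signals of different probes were not compared with each other.

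The study asked how silencing of the microRNA miR-199a-5p changes lung gene expression after bleomycin, a chemotherapy drug whose instillation scars the lungs of mice. All mice were C57BL/6 and 9 to 12 weeks old, and all received a locked nucleic acid (LNA) oligonucleotide at 5 mg/kg into the trachea 4 and 2 days before, and 4 days after, bleomycin at 1 unit/kg or PBS. There were 5 arrays of bleomycin with LNA-miR-199a-5p, 5 of bleomycin with LNA-control, 3 for the PBS LNA-miR-199a-5p group and 3 for PBS with LNA-control. The labels number the replicates without saying that each is a separate mouse, so p-values measure only the spread between these samples, which may be technical. RNA integrity numbers differed within each group, for example from 7 to 9 in bleomycin with LNA-control. Whether any arrays share a mouse was not tested. Because PBS lungs also received an LNA 3 times, no group was untreated, and neither the sex of the mice nor the day on which lungs were taken is stated. The level of miR-199a-5p itself was not analysed here.

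Clotting at an injured surface starts when tissue factor, the product of F3, meets plasma factor VII, and ends in fibrin cross-linked by factor XIII, whose A chain F13a1 encodes. Tissue factor pathway inhibitor (Tfpi) blocks the first step. Thrombomodulin (Thbd) turns thrombin into an activator of the anticoagulant protein C, which the endothelial protein C receptor (Procr) presents for activation. Fibrin is removed by plasmin, which urokinase (Plau, held at the cell surface by its receptor Plaur) and tissue plasminogen activator (Plat) release from plasminogen, and which serpins such as protease nexin-1 (Serpine2) hold back. In fibrotic lung the balance of these activities is known to shift towards fibrin that persists in the air spaces.

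The silenced microRNA is shown first because it separates the LNA arms. Its mature form is encoded at both chr1:162217844-162217866 (plus strand, Mir199a-2) and chr9:21496537-21496559 (minus strand, Mir199a-1) in GRCm38.p6, and the capitals mark the seed, bases 2 to 8. Sequences are from RefSeq.
mmu-miR-199a-5p: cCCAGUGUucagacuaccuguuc

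Promoter windows are shown for the 2 genes whose response to bleomycin differed between the LNA arms, Serpine2 and Procr, and for Plaur and F3, which contain the AP-1 motif that Procr also holds. Each window runs from 250 bases before to 50 bases after the annotated start. RefSeq promoters were found for 6 of the 9 genes, and those of Plau, Plat and Thbd were not used here. The capitals mark matches on either strand to the TATA box (letters TATAAA), the AP-1 motif (letters TGANTCA), the GC box (letters GGGCGG), the E-box (letters CACGTG) and the antioxidant element (letters TGACNNNGC). The windows lie at chr1:79858616-79858915 (minus strand) for Serpine2, chr2:155750967-155751266 (plus) for Procr, chr7:24462233-24462532 (plus) for Plaur and chr3:121723287-121723586 (plus) for F3.
Serpine2: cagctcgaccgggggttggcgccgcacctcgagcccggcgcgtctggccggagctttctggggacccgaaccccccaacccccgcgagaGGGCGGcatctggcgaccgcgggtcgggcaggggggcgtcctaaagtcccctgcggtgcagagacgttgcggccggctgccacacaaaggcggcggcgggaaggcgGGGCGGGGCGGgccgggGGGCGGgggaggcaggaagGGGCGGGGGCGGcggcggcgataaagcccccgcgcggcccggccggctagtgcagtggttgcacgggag
Procr: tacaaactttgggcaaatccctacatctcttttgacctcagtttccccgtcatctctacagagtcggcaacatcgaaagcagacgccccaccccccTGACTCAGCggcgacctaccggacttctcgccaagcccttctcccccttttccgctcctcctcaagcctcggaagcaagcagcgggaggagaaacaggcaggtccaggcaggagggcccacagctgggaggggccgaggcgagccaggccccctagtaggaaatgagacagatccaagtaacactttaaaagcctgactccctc
Plaur: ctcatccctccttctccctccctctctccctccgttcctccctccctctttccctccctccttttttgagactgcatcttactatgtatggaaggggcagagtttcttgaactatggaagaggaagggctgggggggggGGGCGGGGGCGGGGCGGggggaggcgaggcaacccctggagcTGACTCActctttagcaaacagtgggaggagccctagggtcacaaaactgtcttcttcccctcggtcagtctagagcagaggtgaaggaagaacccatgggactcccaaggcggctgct
F3: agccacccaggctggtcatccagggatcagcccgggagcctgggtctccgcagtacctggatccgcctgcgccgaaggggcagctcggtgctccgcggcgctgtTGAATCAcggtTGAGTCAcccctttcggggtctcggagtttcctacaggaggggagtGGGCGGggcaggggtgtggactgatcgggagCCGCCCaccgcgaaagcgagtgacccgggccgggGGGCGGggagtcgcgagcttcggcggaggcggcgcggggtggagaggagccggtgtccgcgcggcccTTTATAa

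The Serpine2 window held 6 GC boxes, of which 2 pairs lie end to end or overlap, and no other of these motifs. Procr held 1 AP-1 match at base 97 of its window, which shares its first 7 bases with an antioxidant element match at the same base. Plaur had 1 AP-1 match at base 182 and 3 GC boxes. F3 had AP-1 matches at bases 105 and 116, 3 GC boxes and a TATA box match at base 294. That TATA box match lies after the annotated start, at position 44, and is on the opposite strand. Among all 32851 promoters of the same length, 7.81% hold AP-1, 35.7% a GC box, 13.6% a TATA box, 7.15% an E-box and 12.4% an antioxidant element. These matches describe letters in the windows and were not tested as binding sites. The windows of Tfpi and F13a1, which are not shown, held no AP-1 match. Plaur and F3 were shown because they hold AP-1, so its frequency in the windows shown cannot be set against that of all promoters.

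Bleomycin moved the genes apart in lungs given LNA-control. Procr, Serpine2, Plat and Plaur rose and Thbd fell, so 5 of the 9 genes were called in limma at an adjusted p under 0.05, against 17.5% of all genes (9.6% higher and 7.9% lower). In lungs given LNA-miR-199a-5p, 1 of the 9, Plaur, was called after bleomycin, against 13.4% of all genes (7.31% higher and 6.04% lower). The LNA arms of the bleomycin lungs differed in 5 of the 9 genes, against 24.9% of all genes (13.4% higher and 11.4% lower): Serpine2, Procr, Plau and Tfpi were lower with LNA-miR-199a-5p and Thbd was higher. Bleomycin groups that did not overlap were found for Serpine2, Procr, Plau and Thbd, as for 13.8% of all genes. Such shares were counted for pairs of groups only. How many genes set 1 group apart from all other arrays, or all bleomycin from all PBS arrays, was not counted. The median change of the 9 genes was 0.31 after bleomycin with LNA-control, where the median of all genes was 0.0035. It was -0.23 for LNA-miR-199a-5p against LNA-control in bleomycin lungs, where the median of all genes was 0.015. Both comparisons use the same 5 arrays of bleomycin with LNA-control, so their opposite signs are not independent. Because the 9 genes were chosen with earlier results known, their counts and medians do not test the group against all genes.

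**Figure D1:**
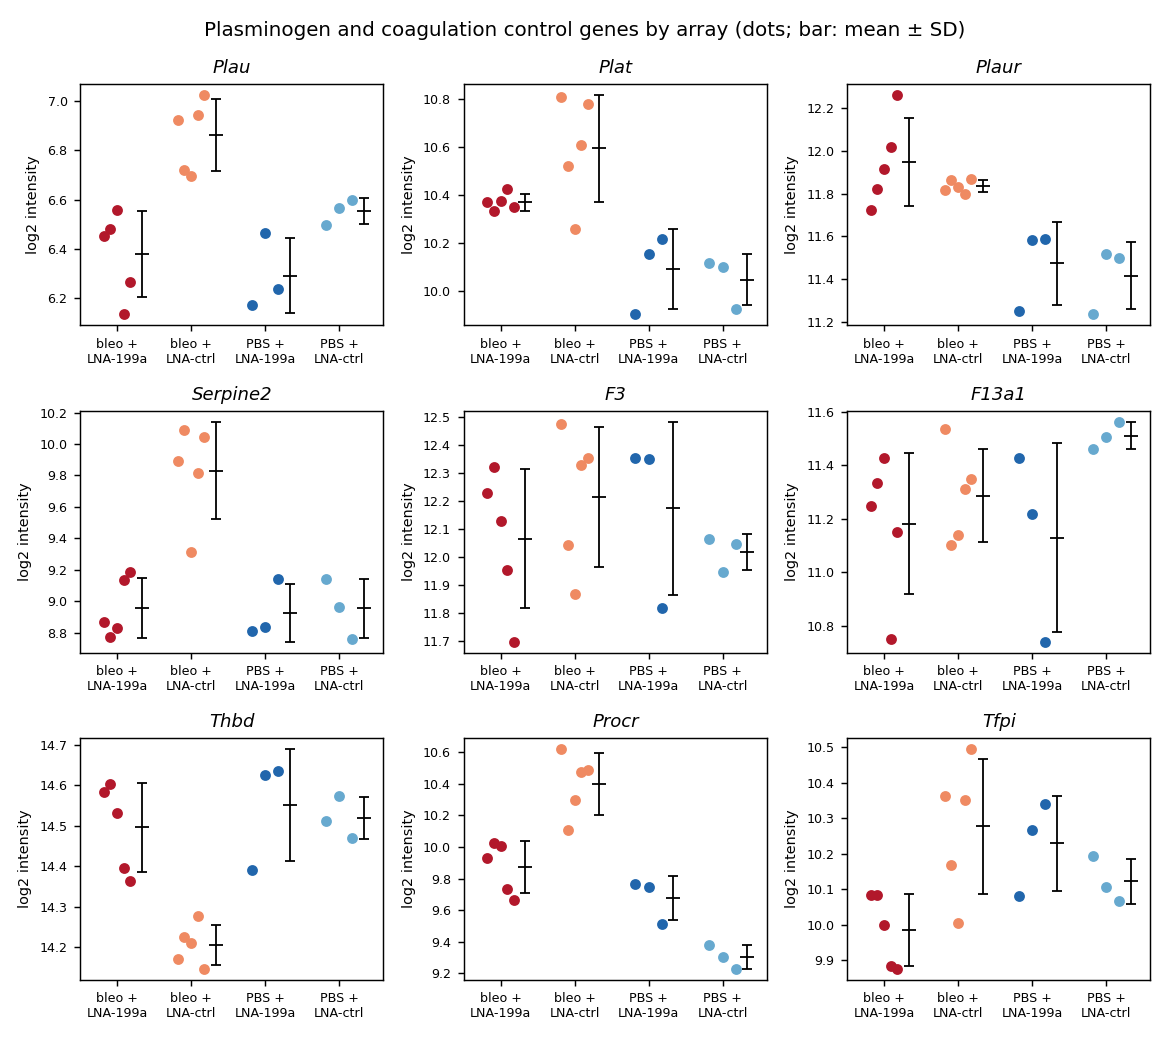
Log2 intensity (vertical axis, 1 scale per gene) of the 9 genes on each of the 16 arrays, by group, with mean ± SD beside the dots. Arrays of bleomycin with LNA-control stand above all other arrays for Serpine2, Plau and Procr and below all others for Thbd, while Plaur is high on both sets of bleomycin arrays.

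Serpine2, the serpin that inhibits thrombin, urokinase and plasmin near the cell surface, had 8.87, 8.77, 8.83, 9.14 and 9.19 in bleomycin lungs with LNA-miR-199a-5p, against 9.89, 10.09, 9.31, 9.81 and 10.04 with LNA-control. In PBS lungs it had 8.81, 8.83 and 9.14 with LNA-miR-199a-5p, against 9.14, 8.96 and 8.76 with LNA-control. Each array of bleomycin with LNA-control was above every other array, and the other 3 groups overlapped. Its group means were 8.96 ± 0.19 (SD, n = 5) for bleomycin with LNA-miR-199a-5p, 9.83 ± 0.31 (SD, n = 5) for bleomycin with LNA-control, 8.93 ± 0.18 (SD, n = 3) for PBS with LNA-miR-199a-5p and 8.96 ± 0.19 (SD, n = 3) for PBS with LNA-control. Serpine2 rose 1.83-fold after bleomycin with LNA-control (log2 change 0.87, SE 0.16, adjusted p 0.000975), and its change with LNA-miR-199a-5p was 0.03 (95% interval -0.30 to 0.36, adjusted p 0.923). In bleomycin lungs it was 1.83-fold lower with LNA-miR-199a-5p than with LNA-control (log2 change -0.87, SE 0.14, adjusted p 0.000323).

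The interaction, that is the bleomycin change with LNA-miR-199a-5p minus the one with LNA-control, was -0.84 for Serpine2 (SE 0.22, adjusted p 0.0323) in the limma model. That call held in 8 of the 16 fits that each left out 1 array, with values of -0.97 to -0.74 and adjusted p up to 0.0973. The arrays whose absence ended it were arrays 1, 4 and 5 of the bleomycin LNA-control group, all 3 of the PBS LNA-miR-199a-5p group, and arrays 2 and 3 of the PBS LNA-control group. The 2 single comparisons of Serpine2 above held in all 16 such fits.

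Procr, the endothelial receptor that presents protein C for activation, had 9.93, 10.03, 10.01, 9.73 and 9.66 in bleomycin lungs with LNA-miR-199a-5p, against 10.62, 10.11, 10.29, 10.47 and 10.49 with LNA-control. The PBS lungs had 9.77, 9.75 and 9.51 with LNA-miR-199a-5p, against 9.38, 9.30 and 9.23 with LNA-control. The group means ran from PBS with LNA-control at the low end, through PBS with LNA-miR-199a-5p and bleomycin with LNA-miR-199a-5p, to bleomycin with LNA-control, and of these neighbours the middle 2 groups overlapped. Procr rose 2.13-fold after bleomycin with LNA-control (log2 change 1.09, SE 0.11, adjusted p 8.15e-06), and its change with LNA-miR-199a-5p was 0.20 (95% interval -0.05 to 0.44, adjusted p 0.266). In bleomycin lungs Procr was 1.44-fold lower with LNA-miR-199a-5p than with LNA-control (log2 change -0.53, SE 0.10, adjusted p 0.00138).

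The order of the LNA arms was the other way round in PBS lungs, where the 3 Procr values with LNA-miR-199a-5p all lay above those with LNA-control, a difference of 0.37 (SE 0.13) that did not pass the test (adjusted p 0.527). Of all genes, 18.1% had groups that did not overlap in that comparison. The interaction for Procr was -0.90 (SE 0.16, adjusted p 0.00455), and it held in all 16 fits without 1 array. Procr and Serpine2 were the 2 of the 9 genes called for the interaction, both negative, against 7.01% of all genes (3.07% positive and 3.94% negative).

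Thbd, whose product thrombomodulin turns thrombin from clotting to protein C activation, had 14.58, 14.60, 14.53, 14.40 and 14.36 in bleomycin lungs with LNA-miR-199a-5p, against 14.17, 14.22, 14.21, 14.28 and 14.15 with LNA-control. Among PBS arrays the values were 14.39, 14.63 and 14.64 with LNA-miR-199a-5p, against 14.51, 14.57 and 14.47 with LNA-control. The 5 arrays of bleomycin with LNA-control all lay below the other 11, and the other 3 groups overlapped. Thbd fell 1.24-fold after bleomycin with LNA-control (log2 change -0.31, SE 0.08, adjusted p 0.00973) and was 1.22-fold higher with LNA-miR-199a-5p than with LNA-control in bleomycin lungs (log2 change 0.29, SE 0.07, adjusted p 0.00544). The fall did not pass without array 2 of the PBS LNA-control group (-0.29, adjusted p 0.055), nor with the replicate number as a block (-0.28, adjusted p 0.0513). The interaction for Thbd was 0.26 (SE 0.11, adjusted p 0.172). Thbd and Procr, which act on the same step, therefore went opposite ways after bleomycin with LNA-control.

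Plau, the gene of urokinase, had 6.45, 6.48, 6.56, 6.14 and 6.27 in bleomycin lungs with LNA-miR-199a-5p, against 6.92, 6.72, 6.69, 6.94 and 7.03 with LNA-control. PBS lungs showed 6.17, 6.46 and 6.24 with LNA-miR-199a-5p, against 6.50, 6.57 and 6.60 with LNA-control. Within each treatment every array with LNA-miR-199a-5p lay below every array with LNA-control. Of all genes, 13.8% had LNA arms that did not overlap in bleomycin lungs, and 18.1% in PBS lungs. Plau was 1.40-fold lower with LNA-miR-199a-5p in bleomycin lungs (log2 change -0.48, SE 0.09, adjusted p 0.00149), while the difference of -0.26 (SE 0.12) in PBS lungs had an adjusted p of 0.657. After bleomycin with LNA-control its difference was 0.31 (SE 0.11, adjusted p 0.0582), with no overlap of the groups, as for 25.3% of all genes in that comparison. That difference did pass without array 4 of the bleomycin LNA-miR-199a-5p group (0.31, adjusted p 0.038) or without array 2 (0.34, adjusted p 0.0411) or 3 (0.35, adjusted p 0.0339) of the bleomycin LNA-control group. The Plau probe was dim, with a mean of 6.55 at the 33.6th percentile of all genes.

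Plaur, the urokinase receptor, had 11.73, 11.82, 11.92, 12.02 and 12.26 in bleomycin lungs with LNA-miR-199a-5p, against 11.82, 11.86, 11.83, 11.80 and 11.87 with LNA-control. In PBS lungs it had 11.25, 11.58 and 11.59 with LNA-miR-199a-5p, against 11.23, 11.52 and 11.50 with LNA-control. All bleomycin arrays lay above all PBS arrays, and the LNA arms overlapped within each treatment. Plaur rose 1.39-fold after bleomycin with LNA-miR-199a-5p (log2 change 0.48, SE 0.11, adjusted p 0.0148) and 1.34-fold with LNA-control (log2 change 0.42, SE 0.11, adjusted p 0.0151), and the difference of these changes was 0.06 (95% interval -0.28 to 0.39, adjusted p 0.875). Array 1 of each PBS group was its lowest array. Without array 1 of the PBS LNA-miR-199a-5p group the change in that arm was 0.36 (adjusted p 0.075), and without array 1 of the PBS LNA-control group the change in the other was 0.33 (adjusted p 0.0997).

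Plat, the gene of tissue plasminogen activator, had 10.37, 10.33, 10.37, 10.42 and 10.35 in bleomycin lungs with LNA-miR-199a-5p, against 10.81, 10.52, 10.26, 10.61 and 10.78 with LNA-control. The PBS arrays gave 9.90, 10.15 and 10.21 with LNA-miR-199a-5p, against 10.11, 10.10 and 9.92 with LNA-control. All bleomycin arrays lay above all PBS arrays, a split that was not counted over all genes. Array 3 of the bleomycin LNA-control group was the lowest of the bleomycin arrays. Plat rose 1.46-fold after bleomycin with LNA-control (log2 change 0.55, SE 0.11, adjusted p 0.00212), and its difference with LNA-miR-199a-5p was 0.28 (SE 0.11, adjusted p 0.0964), with no overlap of the groups, as for 20.7% of all genes in that comparison. The interval of the interaction ran from -0.60 to 0.06, with an adjusted p of 0.323. In bleomycin lungs the difference of LNA-miR-199a-5p against LNA-control was -0.23 (adjusted p 0.0955), and without array 3 of the bleomycin LNA-control group it passed, at -0.31 (adjusted p 0.0101), as did the change after bleomycin with LNA-miR-199a-5p, at 0.28 (adjusted p 0.0459).

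**Figure D2:**
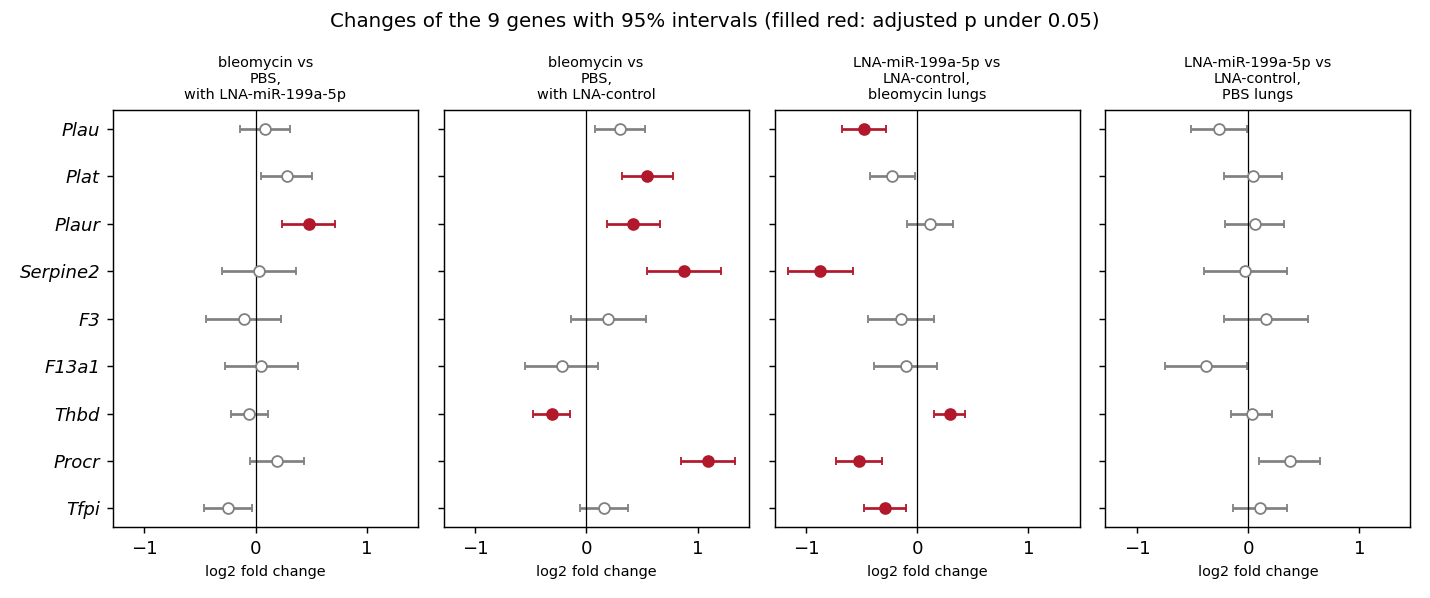
Log2 fold change of each gene (points) with its 95% interval (horizontal bars) in 4 comparisons, filled red where the adjusted p was under 0.05. Procr (1.09) and Serpine2 (0.87) lie farthest right after bleomycin with LNA-control, Serpine2 (-0.87) lies farthest left for LNA-miR-199a-5p in bleomycin lungs, and no gene is filled in PBS lungs.

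Tfpi, the inhibitor of the tissue factor and factor VII complex, had 10.08, 10.08, 10.00, 9.88 and 9.88 in bleomycin lungs with LNA-miR-199a-5p, against 10.36, 10.17, 10.01, 10.35 and 10.50 with LNA-control. Without bleomycin it had 10.08, 10.27 and 10.34 with LNA-miR-199a-5p, against 10.19, 10.11 and 10.07 with LNA-control. The bleomycin groups overlapped through array 3 of the bleomycin LNA-control group. Tfpi was 1.22-fold lower with LNA-miR-199a-5p in bleomycin lungs (log2 change -0.29, SE 0.09, adjusted p 0.0241). Leaving out array 4 or 5 of the bleomycin LNA-miR-199a-5p group, or array 1, 4 or 5 of the bleomycin LNA-control group, ended that call, with changes of -0.27 to -0.24 and adjusted p of 0.0565 to 0.070. With the replicate number as a block the adjusted p was 0.0533.

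The 3 Tfpi probes did not give the same picture. The second brightest probe had 10.13, 10.02, 9.87, 10.11 and 9.95 in bleomycin lungs with LNA-miR-199a-5p, against 9.91, 10.00, 10.13, 10.01 and 10.00 with LNA-control. With PBS in place of bleomycin it had 10.26, 10.25 and 10.33 with LNA-miR-199a-5p, against 10.40, 10.21 and 10.34 with LNA-control, so every bleomycin array lay below every PBS array. On this probe Tfpi fell after bleomycin in both arms, by 0.26 on the log2 scale with LNA-miR-199a-5p (adjusted p 0.0323) and by 0.31 with LNA-control (adjusted p 0.00947), in a limma fit of all 31465 named probes. The LNA difference in bleomycin lungs was 0.0056 on it (adjusted p 0.964). The third probe had a difference of -0.24 in bleomycin lungs (adjusted p 0.0939), so the lower level in that comparison passed the test on 1 of the 3 probes. By their annotation, the brightest and the dimmest Tfpi probes belong to the same RefSeq transcript, and the remaining probe belongs to another transcript. The interaction was -0.40 on the brightest, -0.42 on the dimmest and 0.045 on the remaining probe, none of them called. Whether each probe binds only its annotated transcript was not tested, nor was the part of the transcripts in these differences.

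F3, the gene of tissue factor, ranged from 11.70 to 12.32 in bleomycin lungs with LNA-miR-199a-5p, against 11.87 to 12.47 with LNA-control. In PBS lungs it ranged from 11.82 to 12.35 with LNA-miR-199a-5p, against 11.95 to 12.06 with LNA-control. All 4 groups overlapped, and no comparison of this probe passed the test. Its difference after bleomycin with LNA-control was 0.20 (SE 0.16, adjusted p 0.472), which passed with array weights (0.32, adjusted p 0.0358).

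The dimmer of the 2 F3 probes behaved differently. It had 7.99, 7.99, 8.09, 7.97 and 7.47 in bleomycin lungs with LNA-miR-199a-5p, against 8.40, 8.32, 8.32, 8.13 and 8.44 with LNA-control. The PBS lungs had 7.95, 8.08 and 7.92 with LNA-miR-199a-5p, against 7.90, 8.02 and 7.98 with LNA-control. The 5 arrays of bleomycin with LNA-control lay above the other 11, as they did for Serpine2. On this probe F3 rose by 0.35 (SE 0.12, adjusted p 0.0436) after bleomycin with LNA-control and was lower (log2 change -0.42, SE 0.10, adjusted p 0.00627) with LNA-miR-199a-5p in bleomycin lungs. Changes of F3 are therefore uncertain, since they depend on which probe is read.

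**Figure D3:**
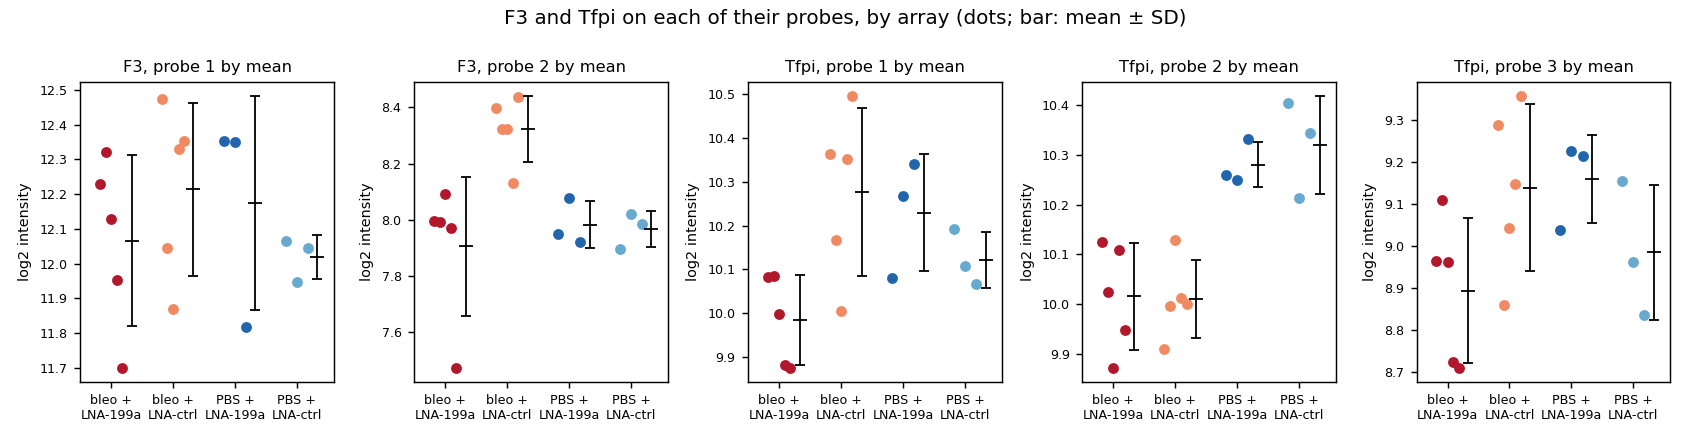
Log2 intensity (vertical axis) of F3 on its 2 probes and of Tfpi on its 3 probes, on each array by group, with mean ± SD beside the dots. On the second F3 probe all arrays of bleomycin with LNA-control lie above all other arrays, and on the second Tfpi probe all bleomycin arrays lie below all PBS arrays, while on the brightest probe of each gene these arrays overlap.

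F13a1, the A chain of the fibrin cross-linking factor XIII and a gene that tissue macrophages are known to express, ranged from 10.75 to 11.43 in bleomycin lungs with LNA-miR-199a-5p, against 11.10 to 11.53 with LNA-control. PBS lungs showed 11.43, 11.22 and 10.74 with LNA-miR-199a-5p, against 11.46, 11.51 and 11.56 with LNA-control. PBS with LNA-control had the highest mean and the smallest spread, and neighbouring groups in the order of means overlapped. The largest difference in limma was -0.38 (SE 0.17, adjusted p 0.665) for LNA-miR-199a-5p in PBS lungs. The groups did not overlap there, as for 18.1% of all genes. Its second probe lay between 5.34 and 5.94 on all arrays, near the lowest values of the table.

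The LNA arms of the PBS lungs differed in 0 of the 9 genes in limma, against 0.0479% of all genes (0.0336% higher and 0.0144% lower). Procr, Plau and F13a1 had an unadjusted p under 0.05 in limma there, and their groups did not overlap, as for 18.1% of all genes. How many of all genes had such a p was not counted. With array weights, 1 of the 9 passed: Procr, at 0.41 (adjusted p 0.027). The median change of the 9 genes was 0.04 there, and the median of all genes 0.014.

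The genes that followed each of the 9 most closely over the 16 arrays, among genes brighter than the median, were listed by Pearson's r as a description, since all 16 arrays share their groups. Serpine2 was closest to Bmp1 (r = 0.954), Spock2 (0.948) and Eln (0.944), of which Eln encodes elastin and Bmp1 a procollagen protease. Procr was closest to Havcr2 (0.959), Cdc34 (0.957) and Acp5 (0.957). Plau was closest to Ctsc (0.945), Itgav (0.936) and Ms4a6c (0.929). For Plat the closest were Dbn1 (0.953), Grrp1 (0.944) and Il4ra (0.944), and for Plaur they were Srm (0.951), Ripk1 (0.948) and Trim46 (0.948). For Thbd they were Lyve1 (0.934), Polr3gl (0.926) and Msi2 (0.914), and for Tfpi they were Nudt21 (0.931), Pcna (0.915) and Cerk (0.907). The closest to F3 were Commd6 (0.907), Gtf2f2 (0.875) and Ndufc2 (0.874), and to F13a1 Mbtd1 (0.876), Gm13004 (0.857) and Ddx59 (0.850).

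Beside these genes, 44 measured genes of the same pathways were counted: 11 of plasmin control, 19 coagulation factors and their cofactors, 10 anticoagulant genes and 4 thrombin-activated receptors. These lists were also chosen with earlier results known, so their counts do not test them against all genes. Of the 44, 7 rose and 3 fell after bleomycin with LNA-control, against 17.5% of all genes called in either direction. After bleomycin with LNA-miR-199a-5p 3 rose and 1 fell, against 13.4% of all genes. For LNA-miR-199a-5p against LNA-control in bleomycin lungs 6 were higher and 7 lower, together 13 of 44, where 24.9% of all genes were called. The median change of the 44 was 0.10 after bleomycin with LNA-control and 0.02 for the LNA difference in bleomycin lungs. For the interaction, 1 of the 44 was positive and 4 were negative, against 7.01% of all genes. None of the 44 was called in PBS lungs, against 0.0479% of all genes, and 5 had an unadjusted p under 0.05 in limma there. None of the 4 receptors had such a p in any comparison.

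Among the coagulation factors, F7, the plasma partner of tissue factor, had 9.62, 9.83, 9.99, 10.12 and 10.10 in bleomycin lungs with LNA-miR-199a-5p, against 10.69, 10.44, 10.17, 10.42 and 10.70 with LNA-control. The PBS arrays gave 9.35, 9.24 and 9.50 with LNA-miR-199a-5p, against 9.23, 9.18 and 9.20 with LNA-control. The bleomycin groups overlapped with neither each other nor the PBS groups. F7 rose 2.42-fold after bleomycin with LNA-control (log2 change 1.28, SE 0.13, adjusted p 4.74e-06) and 1.48-fold with LNA-miR-199a-5p (0.57, SE 0.13, adjusted p 0.0124). It was 1.47-fold lower with LNA-miR-199a-5p in bleomycin lungs (-0.55, SE 0.11, adjusted p 0.00197). The rise with LNA-miR-199a-5p did not pass without array 2 of the PBS LNA-miR-199a-5p group (0.50, adjusted p 0.0517) or with the replicate block (0.48, adjusted p 0.0649).

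Kng1, the gene of kininogen, a cofactor of the contact system, had 7.45, 7.63, 7.03, 7.82 and 7.52 in bleomycin lungs with LNA-miR-199a-5p, against 9.35, 8.96, 8.74, 9.42 and 9.47 with LNA-control. Without bleomycin it had 8.70, 8.19 and 6.31 with LNA-miR-199a-5p, against 6.86, 6.65 and 6.38 with LNA-control. Array 3 of the PBS LNA-miR-199a-5p group stood far below the other 2 arrays of its group, and also had the lowest sum of squamous epithelial markers (9.40 on the log2 scale), whose part in this was not tested. Kng1 rose 5.88-fold after bleomycin with LNA-control (log2 change 2.56, SE 0.37, adjusted p 0.000166) and was 3.24-fold lower with LNA-miR-199a-5p in bleomycin lungs (-1.69, SE 0.32, adjusted p 0.00141). With the mean of all its probes these were 1.32 and -0.84, both still called. On the probe used, the Kng1 signal in PBS lungs with LNA-control was dim, with a mean of 6.63. The mouse genome holds a close paralog, Kng2, and whether these probes also bind its transcript was not tested.

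F5, the cofactor of factor Xa, went the other way. It had 9.38, 9.06, 8.74, 9.33 and 9.91 in bleomycin lungs with LNA-miR-199a-5p, against 8.47, 8.23, 8.82, 8.44 and 8.70 with LNA-control, while all 6 PBS arrays lay between 9.45 and 9.57. F5 fell 2.00-fold after bleomycin with LNA-control (log2 change -0.997, SE 0.19, adjusted p 0.00127) and was 1.69-fold higher with LNA-miR-199a-5p in bleomycin lungs (0.75, SE 0.16, adjusted p 0.00316). Fgg, the fibrinogen gamma chain, rose by 0.55 after bleomycin with LNA-control (SE 0.13, adjusted p 0.00809), a call that ended without array 3 of the PBS LNA-control group (0.44, adjusted p 0.0701).

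Vwf, von Willebrand factor, rose by 0.42 after bleomycin with LNA-miR-199a-5p (SE 0.11, adjusted p 0.0197) and was higher by 0.33 with LNA-miR-199a-5p in bleomycin lungs (SE 0.09, adjusted p 0.0173). The first call ended without array 1 (adjusted p 0.0669) or 2 (adjusted p 0.0567) of the PBS LNA-miR-199a-5p group, at 0.40 and 0.42. The second ended without array 4 or 5 of the bleomycin LNA-control group, at 0.29 in both. F9 fell by 0.57 after bleomycin with LNA-miR-199a-5p (adjusted p 0.0488), and this held in 4 of the 16 fits without 1 array, with values from -0.68 to -0.44.

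Of the anticoagulant genes, Serpina10, which inhibits factor Xa together with protein Z, had 6.87, 7.32, 7.22, 6.83 and 6.68 in bleomycin lungs with LNA-miR-199a-5p, against 8.26, 7.92, 7.71, 8.33 and 8.37 with LNA-control. In PBS lungs it had 7.28, 7.33 and 7.18 with LNA-miR-199a-5p, against 6.63, 6.91 and 6.62 with LNA-control. Arrays of bleomycin with LNA-control lay above all others. Serpina10 rose 2.63-fold after bleomycin with LNA-control (log2 change 1.40, SE 0.16, adjusted p 2.11e-05) and was 2.19-fold lower with LNA-miR-199a-5p in bleomycin lungs (-1.13, SE 0.14, adjusted p 4.69e-05). With the mean of all its probes these were 0.88 and -0.71, both still called. On the probe used, the Serpina10 signal in PBS lungs with LNA-control was also dim, with a mean of 6.72.

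Serpind1, heparin cofactor II, was 1.61-fold higher with LNA-miR-199a-5p in bleomycin lungs (log2 change 0.68, SE 0.10, adjusted p 0.000157). It had 8.08, 8.14, 8.10, 8.11 and 8.47 there, against 7.33, 7.45, 7.80, 7.40 and 7.50 with LNA-control, and the groups did not overlap. The probe of Tfpi2, an inhibitor of plasmin among other proteases, was dim, with group means of 5.85 to 6.45. Gas6, a ligand related to protein S, was counted in this list, and whether it acts as an anticoagulant was not tested. In limma, Serpind1 fell by 0.40 after bleomycin with LNA-control (adjusted p 0.0209), Tfpi2 rose by 0.60 (adjusted p 0.00851) and Gas6 rose by 0.22 (adjusted p 0.0293). Each of these 3 calls ended without array 3 of the PBS LNA-control group, at -0.38 (adjusted p 0.0825) for Serpind1, 0.49 (adjusted p 0.0699) for Tfpi2 and 0.18 (adjusted p 0.174) for Gas6. Serpind1 also lost it without array 2 of that group (adjusted p 0.0782) or array 1 of the bleomycin LNA-control group (adjusted p 0.0534). Gas6 lost it without array 2 of that group or array 4 or 5 of the bleomycin LNA-control group, and when arrays were centred on their medians (0.18, adjusted p 0.0807) or normalized again (0.17, adjusted p 0.0912).

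For LNA-miR-199a-5p in bleomycin lungs, Gas6 was lower (log2 change -0.27, adjusted p 0.00391) and held in all 16 fits without 1 array. Tfpi2 was lower (log2 change -0.39, adjusted p 0.0327), which ended without array 4 or 5 of the bleomycin LNA-miR-199a-5p group or array 1 or 5 of the bleomycin LNA-control group, at -0.36 to -0.31. Anxa5, which binds exposed phosphatidylserine, rose by 0.39 after bleomycin with LNA-miR-199a-5p (adjusted p 0.018), and this ended without array 1 (0.34, adjusted p 0.0759) or 3 (0.35, adjusted p 0.070) of the PBS LNA-miR-199a-5p group.

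Of the plasmin control genes, Anxa2 and S100a10 encode the 2 chains of a cell surface receptor for plasminogen and its tissue activator, and Vtn encodes vitronectin, an adhesive protein of plasma and matrix. Anxa2 rose by 0.38 after bleomycin with LNA-control (SE 0.08, adjusted p 0.0028) and was lower (log2 change -0.25) with LNA-miR-199a-5p in bleomycin lungs (SE 0.07, adjusted p 0.0136). S100a10 was lower (log2 change -0.35) with LNA-miR-199a-5p in bleomycin lungs (SE 0.09, adjusted p 0.00979). Vtn had 10.34, 10.38, 10.50, 10.60 and 10.73 in bleomycin lungs with LNA-miR-199a-5p, against 9.64, 9.89, 10.20, 9.41 and 9.68 with LNA-control, and the groups did not overlap. Vtn fell by 0.58 after bleomycin with LNA-control (SE 0.14, adjusted p 0.00782) and was higher by 0.75 with LNA-miR-199a-5p in bleomycin lungs (SE 0.12, adjusted p 0.000393).

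**Figure D4:**
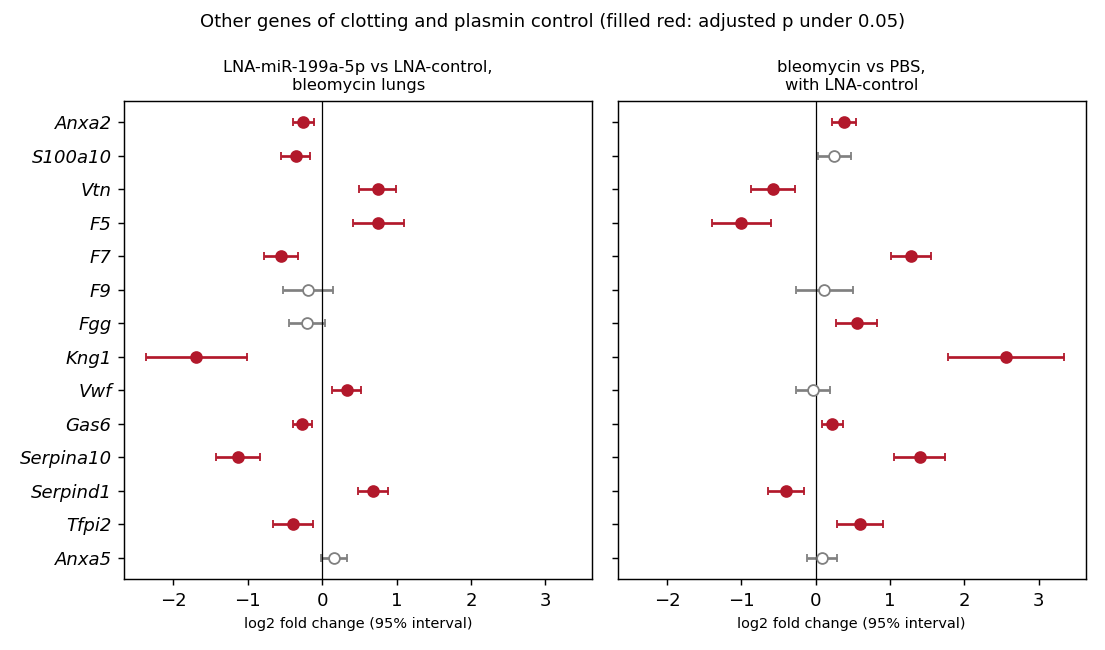
Log2 fold change (points) with 95% interval (bars) of the 14 named genes of the pathway lists, for LNA-miR-199a-5p against LNA-control in bleomycin lungs (left) and for bleomycin against PBS with LNA-control (right), filled red where the adjusted p was under 0.05. Kng1 and Serpina10 lie farthest right after bleomycin and farthest left for the LNA difference, and F5, Vtn and Serpind1 lie on the opposite sides; both panels use the same 5 arrays of bleomycin with LNA-control.

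Marker genes of the cells known to carry these proteins moved between the groups as well. In whole lung, fewer cells of a type and less RNA per cell cannot be told apart. The marker lists were also chosen with earlier results known, so their counts do not test them against all genes. Among all genes, 24.9% were called for LNA-miR-199a-5p in bleomycin lungs (13.4% higher and 11.4% lower). After bleomycin with LNA-control 17.5% were called (9.6% higher and 7.9% lower). Of 8 endothelial markers, 7 were higher and 0 lower with LNA-miR-199a-5p in bleomycin lungs. Their summed intensity there was 16.64 to 16.89 on the log2 scale, against 16.16 to 16.43 with LNA-control. Of the 8, 4 fell and 0 rose after bleomycin with LNA-control, among them Kdr by 0.95 and Tek by 0.73, and the sum in PBS lungs with LNA-control was 16.67 to 16.70. Thbd moved the same way as this list, and Procr, which endothelium also carries, the opposite way. The part of the endothelial markers in the change of either gene was not tested.

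Of 9 macrophage and monocyte markers, 2 were higher and 6 lower with LNA-miR-199a-5p in bleomycin lungs, with sums of 15.31 to 15.41 against 15.61 to 15.84 with LNA-control. Of 6 fibroblast markers, 3 were higher and 3 lower, with sums of 16.67 to 16.99 against 16.79 to 17.33. All 8 platelet markers fell after bleomycin with LNA-control and 7 were higher with LNA-miR-199a-5p, with sums of 14.37 to 14.99 against 13.89 to 14.15 in bleomycin lungs. The shares of all genes called in these 2 comparisons were 17.5% and 24.9%. None of these lists had a marker called for LNA-miR-199a-5p in PBS lungs, where 3 macrophage markers had an unadjusted p under 0.05. Vwf is both an endothelial marker and a coagulation factor here. The part of these markers in the results above was not tested.

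**Figure D5:**
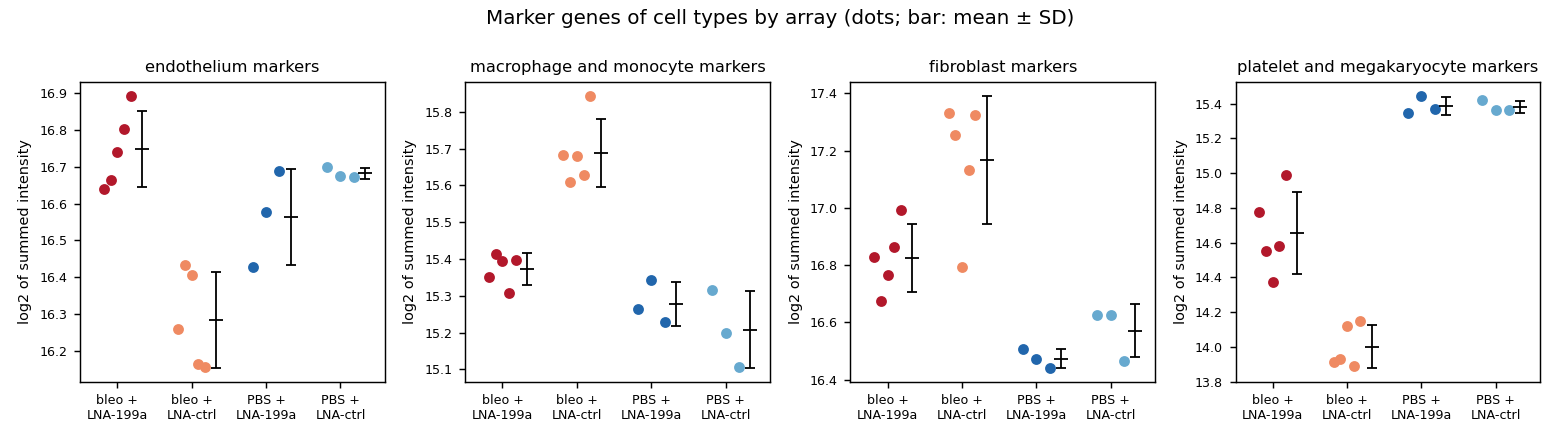
Log2 of the summed intensity (vertical axis) of endothelial, macrophage and monocyte, fibroblast, and platelet markers on each array by group, with mean ± SD beside the dots. Bleomycin with LNA-control has the lowest mean for endothelial (16.16 to 16.43) and platelet (13.89 to 14.15) markers and the highest for macrophage markers (15.61 to 15.84).

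The bleomycin groups also differed in genes of tissues outside the lung. The summed fat markers were 16.19 to 16.50 with LNA-miR-199a-5p, against 15.11 to 15.66 with LNA-control, the squamous epithelial markers 15.85 to 16.80 against 14.43 to 15.65, and the heart markers 16.21 to 17.01 against 15.65 to 16.25. With the mean log2 intensity of these 3 lists as covariates, chosen after the data were seen, 0 of the 9 genes were called for LNA-miR-199a-5p in bleomycin lungs in limma, 2 had an unadjusted p under 0.05, and 173 of all genes were called. The values there were -0.78 for Serpine2 (adjusted p 0.207), -0.23 for Procr (adjusted p 0.573), -0.20 for Plau (adjusted p 0.661), 0.36 for Thbd (adjusted p 0.261) and 0.0043 for Tfpi (adjusted p 0.995). Since the fat and squamous sums did not overlap between the bleomycin groups, these markers and the LNA arm cannot be told apart. The Procr interaction was -0.63 there (adjusted p 0.13) and that of Serpine2 -0.62 (adjusted p 0.451). The same 5 genes were called after bleomycin with LNA-control when the covariates were fitted. Of the 11 pathway genes named above for LNA-miR-199a-5p in bleomycin lungs, Kng1 alone was called with them.

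The lung epithelial markers, which check the tissue label, summed to 19.50 to 19.62 over all 16 arrays, and liver markers to 9.89 to 11.05. Sftpc, one of the lung markers, lay at 18.32, the highest value measured, on every array outside the bleomycin LNA-miR-199a-5p group. The narrow range of the lung sum therefore cannot show that lung content was equal between arrays. Arrays 1 and 4 of the bleomycin LNA-control group carried thymocyte transcripts (12.61 and 13.44, against 10.7 to 11.2 on the other arrays), and without both Tfpi was -0.24 (adjusted p 0.161) for LNA-miR-199a-5p in bleomycin lungs and the Serpine2 interaction -0.83 (adjusted p 0.101). RNA integrity numbers averaged 9.0 in bleomycin lungs with LNA-miR-199a-5p, against 8.2 with LNA-control, and with the number as a covariate Tfpi was -0.24 (adjusted p 0.118) and the Serpine2 interaction -0.85 (adjusted p 0.0647). The other 4 calls among the 9 genes for LNA-miR-199a-5p in bleomycin lungs held in both fits. For LNA-miR-199a-5p in bleomycin lungs, Anxa2 was -0.23 without the thymocyte-rich arrays (adjusted p 0.0725), S100a10 -0.30 in either fit (adjusted p 0.093 without those arrays and 0.0587 with RNA integrity), and Vtn after bleomycin with LNA-control -0.42 without those arrays (adjusted p 0.0567). Vwf (0.27 without those arrays, 0.23 with RNA integrity) and Tfpi2 (-0.33 in either fit) also lost that call in both. After bleomycin with LNA-control, the calls of Serpind1 (-0.31, adjusted p 0.138), Fgg (0.49, adjusted p 0.0581) and Gas6 (0.24, adjusted p 0.0743) ended without the thymocyte-rich arrays. After bleomycin with LNA-miR-199a-5p, fitting only the groups compared left each value as it was but ended the calls of Plaur (0.48, adjusted p 0.0723), F7 (0.57, adjusted p 0.0546), Vwf (0.42, adjusted p 0.058), Anxa5 (0.39, adjusted p 0.0646) and F9 (-0.57, adjusted p 0.116).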

How the data were processed

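Per the labels, 0.2 ug of total RNA from each whole mouse lung was marked with Cy3 (Agilent low-input kit) for arrays of 1 colour. The deposited values are log2 intensities of 62976 spots, and the submitters' processing notes name limma without a version. Sorted values of the 16 arrays lay within 0.0974 of each other, as after quantile normalization, so nothing was normalized again. How background was corrected and which filters were used is not given in the sources used here. Log2 changes understate true changes where a background is left in the signal, and the number of arrays limits the precision.

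A gene name was given for 31465 probes. Symbols were updated through RefSeq for 29036 of them, and 1 probe per symbol, that of highest mean, was kept, which left 20863 genes with no further filter. Arrays within a group correlated at 0.986 or above, and none was a copy of another (smallest median absolute difference 0.106).

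In limma 3.58.1 (R 4.3.3), lmFit and eBayes fitted the means of the 4 groups in a single model over the 16 arrays, with tests two-sided and p-values adjusted by Benjamini-Hochberg over all genes of each of 5 contrasts. The interaction is the bleomycin change with LNA-miR-199a-5p minus that with LNA-control. Genes were called at an adjusted p under 0.05, and the code was tested on simulated data. The 9 genes, the pathway lists and the marker lists were chosen with earlier results of these data known. All 9 genes are named, and of each pathway list up to 4 called genes with the smallest p. The 3 genes closest to each by Pearson's r were taken from genes brighter than the median.

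Same-numbered PBS arrays deviated together (correlations 0.411, 0.108 and 0.497), and same-numbered bleomycin arrays did not (0.03 to -0.37). Between bleomycin and PBS arrays of the same number the correlations ran from -0.195 to 0.324. Arrays of different numbers were not compared, so these values cannot show whether the numbers pair the arrays. The labels do not say that they do. Alternatives covered normalization, probe choice, filters, priors, array weights, the replicate block, RNA integrity, single arrays and markers of other tissues.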

Additional observations from a re-analysis of the deposited data

Results flagged for a closer look

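By the interaction term of the limma model, the bleomycin change differed between the LNA arms for 2 of the 9 genes and 5 of the 44 pathway genes. The same term was called for 7.01% of all genes (3.07% positive and 3.94% negative). The interaction was -0.90 on the log2 scale for Procr (adjusted p 0.00455) and -0.84 for Serpine2 (adjusted p 0.0323). Neither gene was called after bleomycin with LNA-miR-199a-5p. The interaction was -2.80 for Kng1 (adjusted p 0.00557), -1.67 for Serpina10 (adjusted p 0.000534), -0.95 for Fgg (adjusted p 0.00729) and -0.71 for F7 (adjusted p 0.0269). For Serpind1 it was 0.64 (adjusted p 0.025). The call of Serpine2 held in 8 of the 16 fits without 1 array, that of F7 in 11 and that of Serpind1 in 12. For F7 the losses were without array 1 or 3 of the PBS LNA-miR-199a-5p group or any of the 3 arrays of PBS with LNA-control, at -0.72 to -0.64. For Serpind1 they were without array 1 or 2 of the PBS LNA-miR-199a-5p group or array 2 or 3 of the PBS LNA-control group, at 0.56 to 0.64. With the mean of all probes, Kng1 was -1.37 and Serpina10 -1.05, both still called.

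For Fgg the LNA difference was -0.20 in bleomycin lungs (adjusted p 0.211) and 0.75 in PBS lungs (adjusted p 0.101), neither of them called. It had 7.39, 7.53, 7.49, 7.40 and 7.07 in bleomycin lungs with LNA-miR-199a-5p, against 7.66, 7.20, 7.72, 7.68 and 7.65 with LNA-control. In PBS lungs it had 7.59, 7.90 and 7.84 with LNA-miR-199a-5p, against 7.16, 7.12 and 6.81 with LNA-control. Its 7.20 on array 2 of the bleomycin LNA-control group stood apart from the other 4 arrays, with a gap of 0.873 of the group's range. Serpind1 stood apart on array 5 of the bleomycin LNA-miR-199a-5p group, at 8.47, with a gap of 0.826 of the range. Both exceed the critical value of 0.71 for 5 arrays, and 2 of the 46 groups tested did so, about as many as chance gives.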

How the results depend on the processing

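The 13 calls among the 9 genes were recomputed under 389 alternatives in all. Of these, 354 gave the same direction and call, 33 the same direction without the call, and 2 a change of sign, both for Tfpi. Serpine2, Procr and Plat after bleomycin with LNA-control were called in every alternative run. With the replicate number as a block, 4 genes were called after bleomycin with LNA-control (Thbd not) and 4 for LNA-miR-199a-5p in bleomycin lungs (Tfpi not). The block left the other 3 counts of members as they were.

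After bleomycin with LNA-miR-199a-5p the count was 2 with the mean of all probes (Tfpi added at -0.26), 0 with only the groups compared and 0 with the squamous, fat and heart covariates, where 3 had an unadjusted p under 0.05 in each, and 0 to 2 without 1 array. After bleomycin with LNA-control it was 8 with array weights and 4 to 6 without 1 array. For LNA-miR-199a-5p in bleomycin lungs it was 0 with the covariates and 4 to 6 without 1 array. In PBS lungs it was 1 with array weights. For the interaction it was 4 with array weights, 1 with the RNA integrity covariate, 1 without the thymocyte-rich arrays, 1 without the PBS arrays numbered 3, 0 with the covariates (3 with an unadjusted p under 0.05) and 1 to 3 without 1 array.

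The number of all genes called moved more. In PBS lungs 10 were called, 3 with the replicate block, 2 with the block on the PBS arrays alone, 394 with array weights, and 2 to 121 without 1 array. After bleomycin with LNA-miR-199a-5p 2786 were called, 663 with the block, 271 with only the groups compared, 220 with the covariates, and 1186 to 3534 without 1 array. After bleomycin with LNA-control 3651 were called and 6713 with array weights, and for the LNA difference in bleomycin lungs 5188 and 173 with the covariates. The interaction had 1462, 3862 with array weights and 160 with the covariates.

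Signs turned mostly for changes that were not called, but also for the called differences of F5, Tfpi2 and Tfpi in bleomycin lungs. After bleomycin with LNA-miR-199a-5p, Serpine2 was -0.015 with median centring and -0.070 with the block, F13a1 -0.017 with the mean of probes, -0.14 without the PBS arrays numbered 3 and -0.087 on its other probe, F3 0.0078 with RNA integrity, and Thbd 0.021 with the covariates. After bleomycin with LNA-control, Tfpi was -0.00047 with the mean of probes and -0.31 on its second probe, F3 -0.10 with the covariates, and F13a1 0.028 on its other probe. In PBS lungs, Thbd was -0.0062 when normalized again and -0.035 without the PBS arrays numbered 3, Plat -0.080 without those arrays and -0.0022 with the covariates, Plaur -0.0051 with the covariates, F13a1 0.034 on its other probe, and Tfpi -0.040 on its second probe. For LNA-miR-199a-5p in bleomycin lungs with the covariates, Plaur was -0.096, Plat 0.022, F3 0.31, F13a1 0.096, Tfpi 0.0043, F5 -0.030 and Tfpi2 0.12, and Tfpi was 0.0056 on its second probe. For the interaction with the covariates, Plau was 0.0077, Plaur -0.091, Plat 0.024 and F3 0.012, and on other probes F13a1 was -0.12 and Tfpi 0.045. Without 1 array, the ranges that crossed 0 were -0.028 to 0.14 for Serpine2 and -0.14 to 0.20 for F13a1 after bleomycin with LNA-miR-199a-5p, -0.17 to 0.0036 for F13a1 in bleomycin lungs, -0.056 to 0.15 for the Plaur interaction and, in PBS lungs, -0.13 to 0.066 for Serpine2, -0.011 to 0.11 for Thbd, -0.034 to 0.17 for Plaur and -0.019 to 0.14 for Plat. The cause was not tested for any of these.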
